A study of Mus musculus with 13 samples.

Results

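The presumptive intervertebral disc (IVD) and the presumptive vertebrae of control mouse embryos were compared by gene expression on 6 arrays, 3 of control IVD and 3 of control vertebrae, out of 13 arrays in the series. The arrays were chosen by their labels alone, and every probe set that is not an array control was kept, 45037 in all. Tissue came from the lumbar region at E13.5 and was cut from frozen sections by laser capture, with the vertebrae next to each captured IVD going into a separate cap. Control embryos carried no Cre and 1 floxed Tgfbr2 allele (Cre-;Tgfbr2lox/wt), so the 6 arrays share this heterozygous floxed allele, in which exon 2 is flanked by loxP sites. The other 7 arrays came from mutant embryos, 4 of IVD and 3 of vertebrae (Cre+;Tgfbr2lox/lox), in which Cre is driven by the Col2a promoter and is therefore active in cells that turn on this cartilage promoter. By the study's account, future annulus fibrosus made up most of each disc capture, and some notochord was included.

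The sclerotome of the somites gives rise to both tissues. Its cells condense into the cartilage of the vertebral bodies under the Sox family of transcription factors, while cells between the bodies form the annulus fibrosus, a ring of layered fibrous tissue that resembles tendon and ligament. Cartilage is rich in collagen II, aggrecan and matrilins, whereas fibrous tissue is rich in collagen I, collagen VI and small leucine-rich proteoglycans, and TGF-β signalling is known to favour the fibrous side in the axial skeleton.

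All values are log2 signals relative to the median of the probe set over the 13 arrays. They show how arrays differ, without telling how strongly a gene was expressed or how far its signal stood above background, and precision is set by how few arrays there are. A gene's value is the mean of its probe sets. A difference is IVD minus vertebrae on the log2 scale, so 1 is 2-fold, and a pair is the IVD and the vertebrae array of the same number. The study took both control tissues from the same animals without stating which array numbers belong to 1 animal, and p-values measure the spread between these arrays.

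Most markers chosen for each tissue differed in the direction of the labels. Fmod, Pax1, Pax9, Tgfb3, Col1a1 and Scx, chosen as markers of the disc, were higher in IVD in all 3 pairs in 6 of 6 cases, by 0.38 to 1.39. Fmod, Pax1, Pax9 and Tgfb3 are on the study's list of IVD enriched genes from these same control arrays, so they are no independent check. Col1a2, the partner chain of Col1a1, did not share this direction, and 3 of 14 tendon and ligament genes were higher in all 3 pairs. Of 6 markers of vertebral cartilage, 5 were lower in IVD in all 3 pairs, and the exception was Col2a1, with a mean difference of 0.04. Sox9, 1 of these 6, is on the study's list of vertebrae enriched genes from these same arrays, so it is no independent check either. Transcripts of neighbouring tissues differed between the arrays. The mean of 12 liver genes was 4.79 in control IVD 1 and 4.96 in control vertebrae 1, and between -0.24 and 0.00 in the other 4 arrays. Neuronal genes (21 measured) averaged 1.97 in control vertebrae 3 and at most 0.50 elsewhere, and 21 skeletal muscle genes averaged 1.70 in control IVD 1 and at most 0.48 elsewhere. Notochord genes (7 measured) averaged 0.68, -0.12 and 0.13 in IVD 1 to 3 and 0.65, 0.23 and -0.62 in vertebrae 1 to 3, so they did not separate the tissues.

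**Figure D1:**
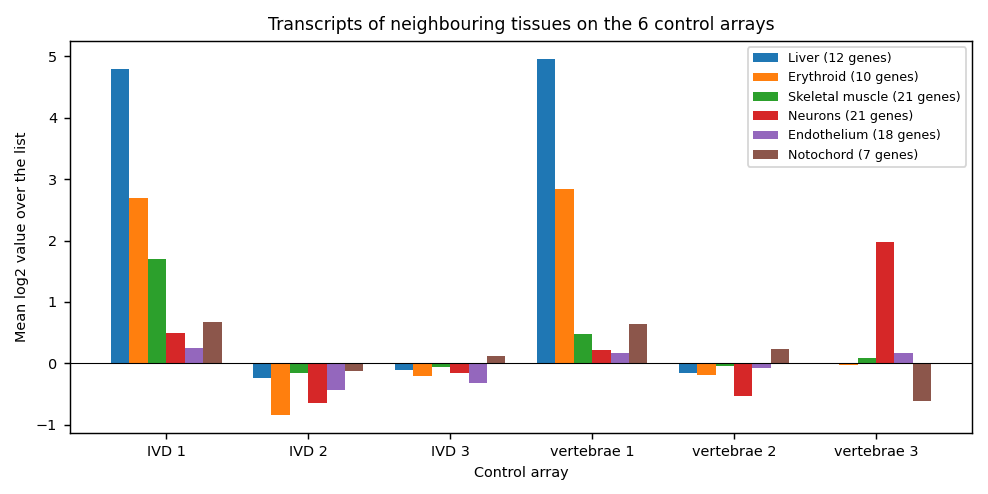
Mean log2 value of 6 lists of neighbouring tissue genes (vertical axis) on each of the 6 control arrays (horizontal axis), with a bar per list. Liver and erythroid genes stand high in both arrays of number 1 and neuronal genes in control vertebrae 3.

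The number of probe sets that passed a test depended on whether arrays of the same number were treated as pairs. Without a block limma called 0 of 45037 probe sets (0.0%) at an adjusted p under 0.05, with 1781 at an unadjusted p under 0.05 and a smallest adjusted p of 0.0579. With arrays paired by number in a fixed block, 32 probe sets passed (0.0711%), 29 higher and 3 lower in IVD. With the number as a random block, 42 passed (0.0933%), 34 higher and 8 lower. In all 55 probe sets passed in either fit, 19 of them in both. The SEs printed for single genes below are those of the fixed block, and their adjusted p-values are from the block fits. The pairing in these fits was taken from the data, and no gene passed without a block. By the study's criterion, a 2-fold difference and an unadjusted p below 0.05, limma without a block gave 313 probe sets higher and 147 lower in IVD.

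At the level of genes, 3206 of 18193 were higher in IVD in all 3 pairs (17.6%) and 3189 were lower in all 3 pairs (17.5%). Of the 18193 genes, 772 higher and 699 lower in IVD had IVD and vertebrae groups that did not overlap. With 3 arrays against 3, such a gene has p = 0.10 in a two-sided exact permutation test. Groups that do not overlap are therefore weak evidence for a single gene. At least 2-fold higher in every pair were 46 genes (0.253%), and 15 were at least 2-fold lower in every pair (0.0824%). The fibrous lists held 128 measured genes, of which 74 (57.8%) were higher in all 3 pairs and 9 (7.03%) lower, with a median difference of 0.55. The cartilage lists held 67 measured genes, of which 38 (56.7%) were lower in all 3 pairs and 6 (8.96%) higher, with a median of -0.53. The median over all genes was -0.01. Some genes of the fibrous lists, Col6a1 and Fmod among them, are on the study's list of IVD enriched genes from these same control arrays. Sox9, Prkg2, Bmper and Ebf1 are on its list of vertebrae enriched genes from these arrays, so their direction was known beforehand.

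**Figure D2:**
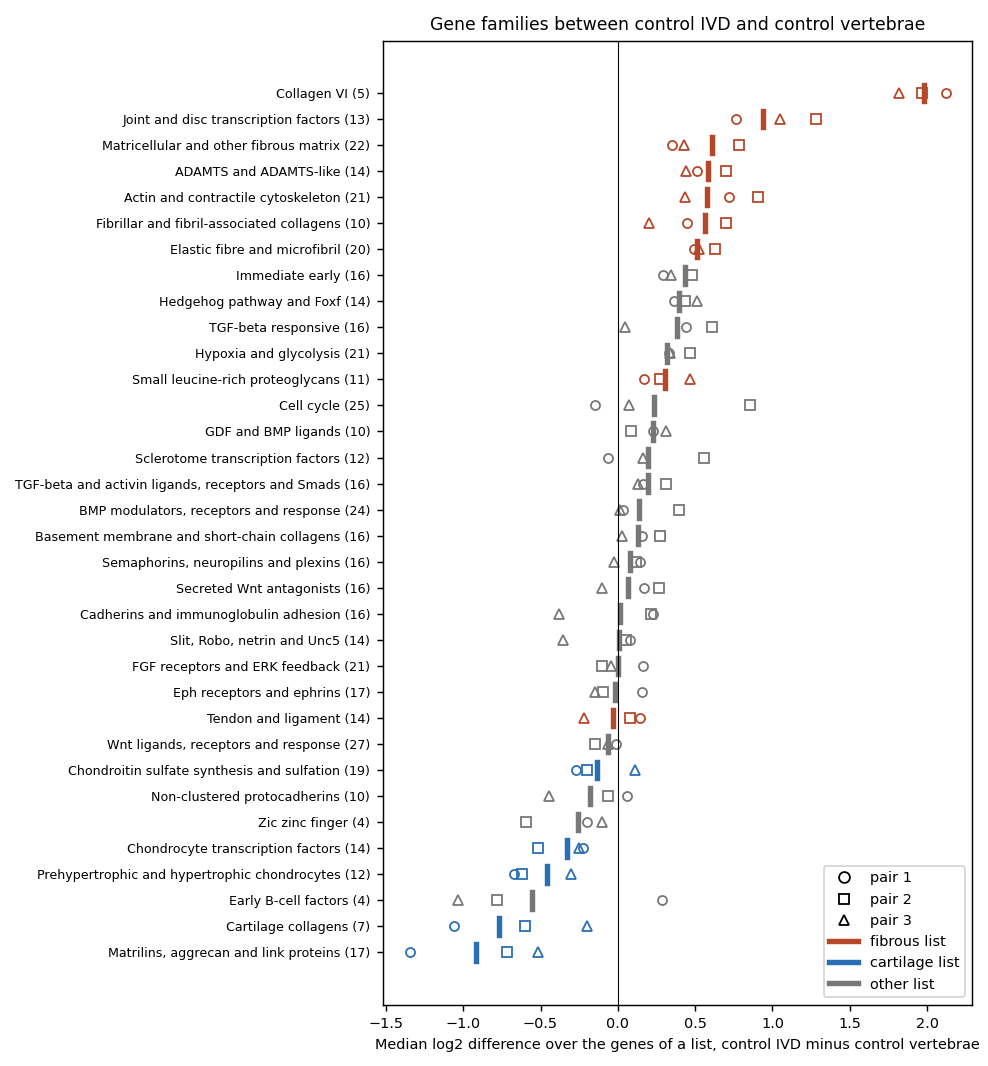
Median log2 difference (horizontal axis) over the genes of each list (vertical axis, number of measured genes in brackets), with open symbols for the 3 pairs and a bar for the median of the genes' mean differences. Collagen VI lies at 1.98, the joint and disc transcription factors at 0.94, and matrilins, aggrecan and link proteins at -0.92.

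Promoters of 4 genes are shown, 2 from each side of this contrast, because TGF-β acts through Smad proteins and cartilage genes through Sox factors. The sequences are the 250 bases before the start of the gene in RefSeq, on build GRCm38.p6 and all on the plus strand, and capitals mark matches to CAGAC, the core of a Smad site, or ACAAT, the core of a Sox site, on either strand. For Epyc the more upstream of 2 listed starts is given.
Tgfbi (chr13:56609336-56609585): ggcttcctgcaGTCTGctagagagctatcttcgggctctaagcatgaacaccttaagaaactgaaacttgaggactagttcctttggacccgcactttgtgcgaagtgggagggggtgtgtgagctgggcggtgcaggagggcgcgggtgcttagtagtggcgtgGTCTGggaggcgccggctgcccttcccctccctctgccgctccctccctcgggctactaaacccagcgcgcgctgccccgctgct
Fmod (chr1:134037004-134037253): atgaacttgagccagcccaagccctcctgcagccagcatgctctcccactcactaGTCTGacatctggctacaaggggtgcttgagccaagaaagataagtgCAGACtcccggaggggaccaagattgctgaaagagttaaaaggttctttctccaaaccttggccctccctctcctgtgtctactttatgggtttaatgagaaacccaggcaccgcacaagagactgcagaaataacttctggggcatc
Matn1 (chr4:130944135-130944384): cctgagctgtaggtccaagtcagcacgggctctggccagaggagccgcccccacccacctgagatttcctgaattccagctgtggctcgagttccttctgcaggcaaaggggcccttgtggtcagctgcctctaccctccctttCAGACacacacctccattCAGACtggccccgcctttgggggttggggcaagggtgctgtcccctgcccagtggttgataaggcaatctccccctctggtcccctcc
Epyc (chr10:97643818-97644067): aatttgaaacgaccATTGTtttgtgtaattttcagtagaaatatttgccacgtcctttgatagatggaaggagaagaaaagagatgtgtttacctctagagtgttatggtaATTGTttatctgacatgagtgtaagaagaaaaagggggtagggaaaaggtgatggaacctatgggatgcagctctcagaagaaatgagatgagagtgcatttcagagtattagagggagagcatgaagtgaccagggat
Tgfbi, Fmod and Matn1 each held 2 matches to CAGAC and none to ACAAT, and Epyc held 2 matches to ACAAT and none to CAGAC. Counted by gene, with a match in any listed promoter, CAGAC was held by 46.2% and ACAAT by 24.2% of 14452 named genes with a promoter (42.2% and 27.7% of 32851 single promoters). Among the genes at least 2-fold higher in IVD in every pair, 13 of 33 with a promoter (39.4%) held CAGAC and 5 (15.2%) held ACAAT, and among those lower, 3 of 13 (23.1%) and 5 (38.5%) did so. The other motifs searched on both strands were TAAACA (Fox), GGAATG (Tead), TGANTCA (AP-1), TGTGGT (Runx) and CCCNNGGG (Ebf), held by 10.8%, 13.4%, 6.7%, 13.7% and 17.1% of all named genes with a promoter. Of the 33 genes 12.1%, 15.2%, 9.09%, 12.1% and 15.2% held them, and of the 13 genes 23.1%, 30.8%, 7.69%, 30.8% and 15.4%. These shares describe letters in a window and no binding.

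Collagen VI, which forms beaded filaments around cells, was the fibrous list with the largest median. Col6a1 had values of 1.08, 2.11 and 0.83 in IVD 1 to 3 and of -1.44, 0.00 and -1.12 in vertebrae 1 to 3. The groups did not overlap, and the array of number 2 was the highest of each tissue. Its difference was 2.19 (SE 0.16, adjusted p = 0.0389 from limma with the fixed block and 0.0729 with the random block). In limma without a block, the SE of Col6a1 was 0.48 and its adjusted p 0.771. Col6a2 and Col6a3, the chains that assemble with it, differed by 1.98 and 2.01, and each had a probe set at an adjusted p of 0.0388 with the fixed block (0.0913 and 0.062 with the random block). The more restricted chains Col6a4 and Col6a5 differed by -0.13 and 0.05.

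Among fibrillar and fibril-associated collagens, 6 of 10 were higher in all 3 pairs and 1 was lower, and none passed a test. Col5a2 and Col3a1, which join collagen I in thin fibrils, differed by 1.25 and 1.13, but by 0.16 and 0.25 in pair 3. Col1a1, the main chain of fibrous collagen, had values of 0.36, 0.93 and 0.02 in IVD and of -0.50, -0.50 and -0.60 in vertebrae. The groups of Col1a1 did not overlap. Its partner chain Col1a2 differed by -0.12, with a different direction in pair 2 from the other pairs.

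The 11 listed small leucine-rich proteoglycans, which bind collagen fibrils and set their thickness, split into a group that was higher in IVD and a group near 0. Aspn, asporin, had values of 1.15, 3.05 and 2.29 in IVD and of -1.24, 0.20 and -1.07 in vertebrae. The groups did not overlap, and its probe set passed with the fixed block (adjusted p = 0.0388) and not with the random block (0.0586). Ogn, osteoglycin, differed by 2.35, Fmod, fibromodulin, by 1.16 and Bgn, biglycan, by 1.08, each higher in all 3 pairs. Lum, lumican, and Dcn, decorin, which are also abundant in tendon, differed by -0.19 and 0.02. Of the 11 members of this list 6 were higher in all 3 pairs and none lower. Epyc, also a small leucine-rich proteoglycan, was counted with the cartilage genes and was lower in all 3 pairs, by -1.65.

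The matricellular list included some of the largest differences. Tgfbi, a secreted matrix protein named for its induction by TGF-β, had values of 1.72, 2.09 and 1.17 in IVD and of -0.31, -0.09 and -0.43 in vertebrae. Its 4 probe sets had the same sign, and the clearest passed both block fits with a difference of 2.44 (SE 0.14, adjusted p = 0.0388 with the fixed block). Dpt, dermatopontin, which binds decorin and collagen, differed by 2.71 (adjusted p = 0.0845 with the fixed and 0.0363 with the random block). Within the CCN family Ccn1, Ccn2 and Ccn3 were lower in IVD in all 3 pairs, by -0.70, -0.60 and -1.40, while Ccn4 was higher by 1.42. Ccn3 had a value of 3.40 in control vertebrae 3, the array with the high neuronal mean, and at most 0.11 in every other control array. The part of neuronal tissue in that difference was not tested. Of the ADAMTS and ADAMTS-like proteases and proteins 8 of 14 were higher in all 3 pairs and none lower, with Adamts15 at 1.86 and Adamts6 at 1.55. Of elastic fibre genes 12 of 20 were higher in all 3 pairs and 3 lower, with Emilin3 at 1.85 (adjusted p = 0.0389 with the fixed block and 0.0729 with the random block).

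**Figure D3:**
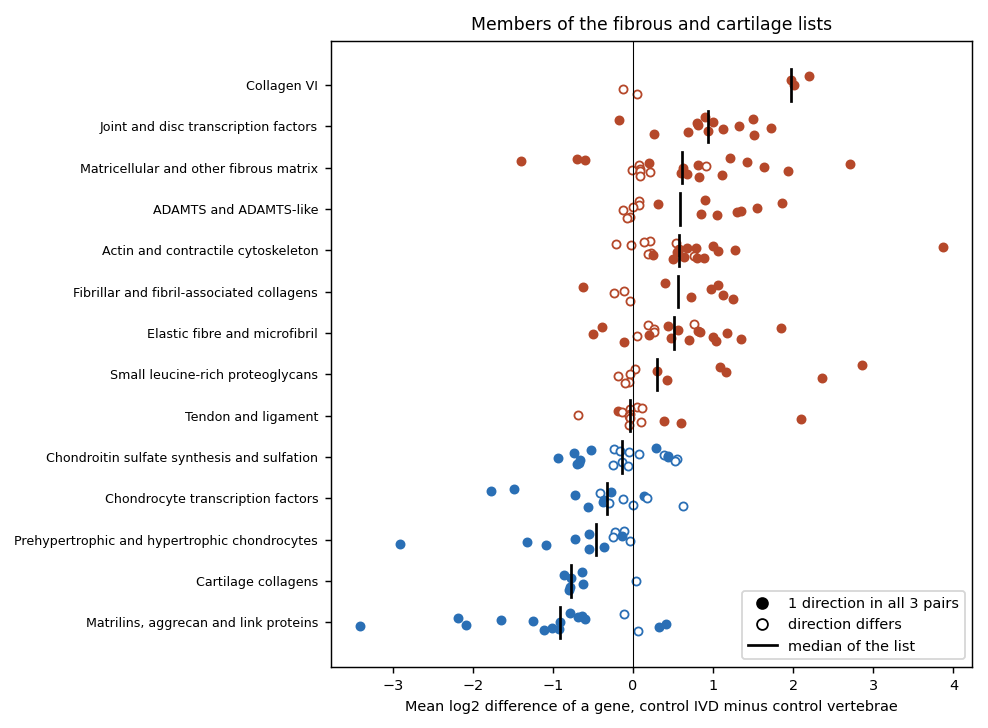
Mean log2 difference (horizontal axis) of every measured member of the fibrous lists (red) and cartilage lists (blue). Lists are on the vertical axis, filled points had the same direction in all 3 pairs, open points did not, and black bars are list medians. Col2a1 is the open point at 0.04 among the cartilage collagens.

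Joint and disc transcription factors had nearly 1 direction. Of 13 genes, 12 were higher in all 3 pairs and the other, Barx2, was lower in all 3 pairs, by -0.18. Erg, Fosl2, Nfatc1 and Trps1 are on the study's list of IVD enriched genes from these same control arrays, so their direction was known beforehand. Mn1, a transcriptional coregulator, differed by 1.72, Trps1, a GATA-type repressor, by 1.51, and Fosl2, an AP-1 subunit, by 1.33. Fosl2 rests on 1 of its 2 probe sets, which differed by 2.66 (adjusted p = 0.0921 with the fixed block and 0.0368 with the random block). Nfatc1, a calcineurin-regulated factor, had values of 0.81, 1.01 and 0.47 in IVD and of -0.07, -0.27 and -0.73 in vertebrae. The groups did not overlap, its 5 probe sets had the same sign, and its clearest probe set differed by 1.60 (adjusted p = 0.0921 with the fixed block and 0.0422 with the random block). Trps1 had a probe set at an adjusted p of 0.0492 with the fixed block and 0.0953 with the random block. Erg, a joint cartilage factor, differed by 0.80 and Nfib by 0.94.

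Tendon and ligament genes had no shared direction, with a median of -0.03 and 3 of 14 higher in all 3 pairs. Mkx, Mohawk, a regulator of tendon collagen, had values of 0.57, 2.07 and 1.10 in IVD and of -1.07, -0.86 and -0.64 in vertebrae. Its groups did not overlap, and its difference of 2.10 had an adjusted p of 0.119 with the fixed block. Scx, scleraxis, which marks tendon progenitors, differed by 0.38 in 3 of 3 pairs, and Tnmd, tenomodulin, a marker of mature tendon, by -0.05.

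Sclerotome factors were mixed. Pax1 and Pax9, which are needed for the ventral sclerotome and the disc, differed by 1.13 and 0.68 and were higher in all 3 pairs, whereas Twist1 and Foxc1 differed by -0.21 and 0.03. Ebf1, an early B-cell factor, had values of -1.01, -2.02 and -1.12 in IVD and of 0.04, 0.03 and 0.11 in vertebrae. The groups did not overlap and the vertebrae arrays were close to each other. Its clearest probe set differed by -1.10 (adjusted p = 0.104 with the fixed block and 0.0639 with the random block). Zic1 was lower in all 3 pairs by -1.21.

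**Figure D4:**
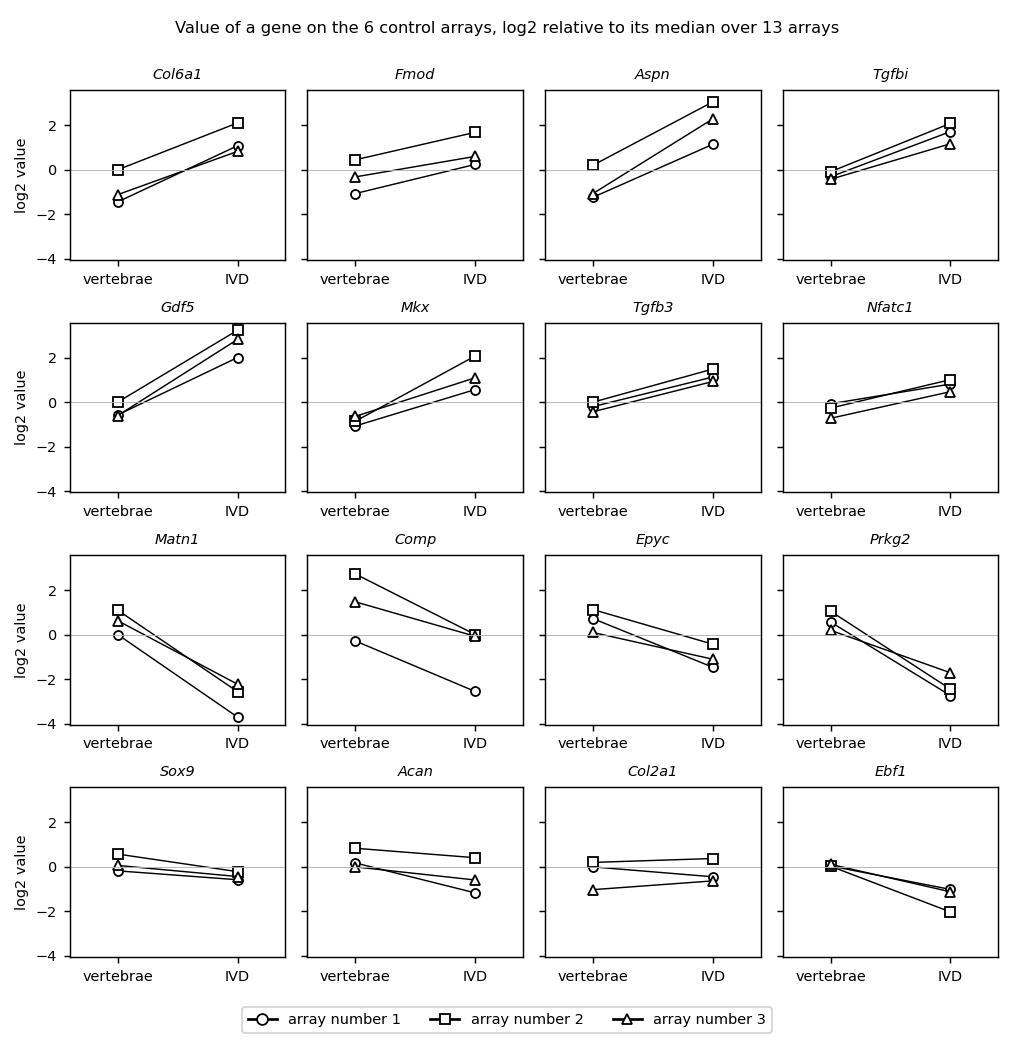
Value of 16 genes (vertical axis, log2 relative to its median over all 13 arrays) in vertebrae and IVD of the 6 control arrays, with lines joining arrays of the same number. Col6a1, Aspn, Gdf5 and Mkx are higher in IVD in every pair, Matn1, Comp, Epyc and Prkg2 are lower, and Col2a1 has no shared direction.

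Signalling genes lay on both sides. Tgfb3, a TGF-β ligand, had values of 1.13, 1.49 and 0.93 in IVD and of -0.20, 0.00 and -0.43 in vertebrae. The groups did not overlap, and its difference was 1.39 (SE 0.12, adjusted p = 0.0579 with the fixed block and 0.0326 with the random block). The receptors Tgfbr1 and Tgfbr2 differed by 0.44 and 0.20, and Inhba, an activin subunit, by 1.06. Of 16 genes of TGF-β and activin signalling 10 were higher in all 3 pairs and 2 lower, and on the list of TGF-β responsive genes 9 of 16 were higher and 2 lower.

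Gdf5, a BMP family ligand of joints, had values of 2.01, 3.23 and 2.82 in IVD and of -0.57, 0.00 and -0.61 in vertebrae, and its groups were far apart. Its difference was 3.08 (SE 0.19, adjusted p = 0.0388 with the fixed block and 0.0251 with the random block). Bmper, a secreted BMP regulator, differed by -2.59 (adjusted p = 0.059 with the fixed block and 0.0279 with the random block). Secreted Wnt antagonists had a median of 0.07, but Wif1 differed by 2.97 and passed both block fits. Fzd8, a Wnt receptor, differed by 1.90. Hhip, which binds hedgehog ligands, differed by 2.59, and 11 of 14 genes of the hedgehog list were higher in all 3 pairs, 1 lower. Among guidance genes, Sema3e and Sema3a differed by 1.19 and 0.95, while Unc5c, a netrin receptor, differed by -1.50. The semaphorin receptors Nrp1 and Nrp2 differed by -0.93 and -1.08, with values above 0 in pair 1 (0.23 and 0.03).

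Genes of the actin cytoskeleton were higher as a list, with a median of 0.57, 13 of 21 higher in all 3 pairs and none lower. Fhod3, a formin that builds actin filaments, had values of 2.92, 2.45 and 1.52 in IVD and of -1.28, -1.56 and -1.89 in vertebrae. Its groups did not overlap, and its difference was 3.87 (SE 0.19, adjusted p = 0.0388 with the fixed block and 0.0106 with the random block). Muscle transcripts were high in control IVD 1, and the part of muscle in this list was not tested. In pairs 2 and 3, whose arrays had muscle means of -0.16 to 0.08, Fhod3 differed by 4.01 and 3.41. Immediate early genes had a median of 0.43, with the phosphatase Dusp1 at 1.84 and the AP-1 subunit Fos at 1.21, and hypoxia and glycolysis genes 0.32, with 13 of 21 higher in all 3 pairs. Of 25 cell cycle genes all had a mean difference above 0, but 4 were higher in all 3 pairs, with a median of 0.86 in pair 2 and -0.15 in pair 1.

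Several genes that passed both block fits belong to no fibrous or cartilage list. Nalcn, a sodium leak channel, had values of 1.19, 2.18 and 1.85 in IVD and of -0.84, -0.47 and -0.72 in vertebrae in its clearest probe set. Pappa, a protease that releases insulin-like growth factors from their binding proteins, had values of 1.75, 2.23 and 1.14 in IVD and of -1.34 to 0.00 in vertebrae, also in its clearest probe set. Neither gene's groups overlapped, and these probe sets differed by 2.42 and 2.49. With all probe sets of a gene averaged, Nalcn differed by 2.42 and Pappa by 1.67. Kcnt2, a potassium channel, differed by 3.34, Prmt8, an arginine methyltransferase, by 2.15 and Frem2, a basement membrane protein, by 1.55. Clstn2, a calsyntenin, differed by 2.52 in its clearest probe set and by 1.57 with its probe sets averaged. Each of the 3 probe sets of Gna14, a G protein subunit, differed by 2.43 to 2.90. The adjusted p of these probe sets lay between 0.0388 and 0.0493 with the fixed block and between 0.0066 and 0.0366 with the random block.

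On the cartilage side, the list of matrilins, aggrecan and link proteins had the largest shift, with 13 of 17 lower in all 3 pairs and 2 higher. The list is wider than its name and also holds Comp, Itga10, Epyc and Fbln7. Fbln7, a fibulin, differed by -1.24 (adjusted p = 0.11 from limma with the fixed block). Matn1, matrilin-1, had values of -3.71, -2.57 and -2.23 in IVD and of 0.00, 1.10 and 0.62 in vertebrae. The groups did not overlap, and its difference was -3.41 (SE 0.20, adjusted p = 0.0388 with the fixed block and 0.0277 with the random block). Comp, an oligomeric matrix protein of cartilage and tendon, differed by -2.18, Itga10, a collagen II receptor subunit, by -2.09, and Epyc, epiphycan, by -1.65, and none of these 3 passed a test (adjusted p = 0.0921, 0.161 and 0.112 with the fixed block). Comp had values of -2.56, 0.00 and -0.08 in IVD and of -0.29, 2.72 and 1.47 in vertebrae. These groups overlapped, and in both tissues the array of number 1 was the lowest. Acan, aggrecan, differed by -0.79 and Matn2 and Hapln3, a matrilin and a link protein found outside cartilage as well, by 0.33 and 0.41.

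Of 7 cartilage collagens 6 were lower in all 3 pairs, the chains of collagen IX and XI and Col27a1 among them, by -0.62 to -0.86. The exception was Col2a1, the main collagen of cartilage, whose values were -0.44, 0.38 and -0.63 in IVD and 0.00, 0.20 and -1.02 in vertebrae. The groups overlapped, and the direction differed between pairs.

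Of 14 chondrocyte transcription factors 7 were lower in all 3 pairs and 1 higher. Foxa3, a forkhead factor of maturing chondrocytes, differed by -1.77 (SE 0.12, adjusted p = 0.0388 with the fixed block) with pair differences of -1.83, -1.72 and -1.75. Foxa2, which is counted on the notochord list as well, differed by -1.48. Sox9, the master regulator of cartilage, had values of -0.58, -0.21 and -0.43 in IVD and of -0.18, 0.58 and 0.07 in vertebrae. Its groups only just did not overlap (-0.21 in IVD 2 and -0.18 in vertebrae 1), and its difference was -0.56 (SD 0.20 over 3 pairs). Sox5 and Sox6, which act with Sox9, differed by -0.30 and 0.00. Of 12 genes of prehypertrophic and hypertrophic chondrocytes 12 had a mean difference below 0 and 8 were lower in all 3 pairs. Prkg2, a kinase of hypertrophy, differed by -2.90, Panx3 by -1.32 and Pth1r, a receptor of prehypertrophic cells, by -1.08. Prkg2 passed the random block fit with its clearest probe set (adjusted p = 0.059 with the fixed block and 0.0326 with the random block). Of 19 genes that make or sulfate chondroitin 6 were lower and 3 higher in all 3 pairs. In these bulk samples, fewer cells of a type and less RNA per cell cannot be told apart.

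Neuronal genes also lay lower in IVD, with a median of -0.73, but of -1.63 in pair 3 and 0.25 in pair 1. Liver genes had medians of -0.13, -0.10 and -0.11 in pairs 1 to 3, and neural progenitor genes of -0.07, -0.20 and -0.13. Schwann cell and neural crest genes had -0.01, -0.34 and -0.53, and endothelial genes 0.07, -0.22 and -0.43. Skeletal muscle, notochord and macrophage genes had medians above 0. Lower in all 3 pairs were 7 of 12 liver genes (58.3%, median -0.13), 5 of 9 genes of Schwann cells and neural crest (55.6%, median -0.31) and 7 of 14 neural progenitor genes (50.0%, median -0.11). The same held for 4 of 18 endothelial (22.2%, median -0.19), 2 of 10 erythroid (20.0%, median -0.21) and 2 of 21 neuronal genes (9.52%), against 17.5% of all genes. Of these lists, the share for liver, Schwann cell and neural progenitor genes was near the 56.7% of the cartilage lists, whose median was -0.53. The part of these tissues in the cartilage lists was not tested. The cartilage lists had 40, 38 and 51 of 67 genes lower in the other pairs when pair 1, 2 or 3 was left out, against 5910, 4567 and 5138 of 18193 genes in all. The fibrous lists had 78, 80 and 90 of 128 genes higher, against 4902, 4958 and 5375. These alternatives were chosen after the data were seen.

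The genes at least 2-fold apart in every control pair were looked up in the mutant arrays, which did not take part in their choice. Of the 46 higher in control IVD, 46 were higher in mutant IVD than in mutant vertebrae, where 50.1% of all genes were, and of the 15 lower, 15 were lower, where 49.9% of all genes were. Their median difference was 1.88 in control and 1.45 in mutant for the first group and -1.70 and -1.89 for the second. In the first group 8 of 46 (17.4%) had mutant arrays that did not overlap, against 4.08% of all genes, and in the second 10 of 15 (66.7%), against 2.95%. The smallest of the 46 differences in mutant arrays were those of Fbp1 (0.11), Macc1 (0.27) and Htra1 (0.29), which differed by 1.49, 1.38 and 1.95 in control. Mutant IVD 3 stood apart from the other mutant IVD arrays. It lay beyond all 3 of them towards vertebrae in 44 of the 46 genes and 14 of the 15, against 20.3% and 26.9% of all genes. It was not higher than every mutant vertebrae array in 38 of the 46, where the same held for 76.6% of all genes. Of the 15, it was not lower than every mutant vertebrae array in 5, against 83.2% of all genes. Its Fhod3 value was -1.93 and its Matn1 value 0.60. It had a neuronal mean of 2.61 and a liver mean of 2.26, and mutant IVD 4 had a liver mean of 3.10 and a skeletal muscle mean of 1.97. Their part in the mutant values was not tested. Without mutant IVD 3, a choice made after the data were seen, 46 of 46 and 15 of 15 genes kept their direction, with medians of 2.06 and -2.20, and the mutant arrays did not overlap in 39 of 46 (84.8%, against 7.29% of all genes) and 15 of 15 (against 4.85%). Whether the tissue difference itself changed with genotype was tested by the interaction in limma over the 13 arrays, and 0 of 45037 probe sets (0.0%) passed, with 619 at an unadjusted p under 0.05. In the same fit of 4 groups without a block, the control tissue difference itself also had 0 probe sets passing. The interaction therefore cannot decide whether the tissue difference changed with genotype. A mutant difference smaller than the control one is not shown to differ.

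**Figure D5:**
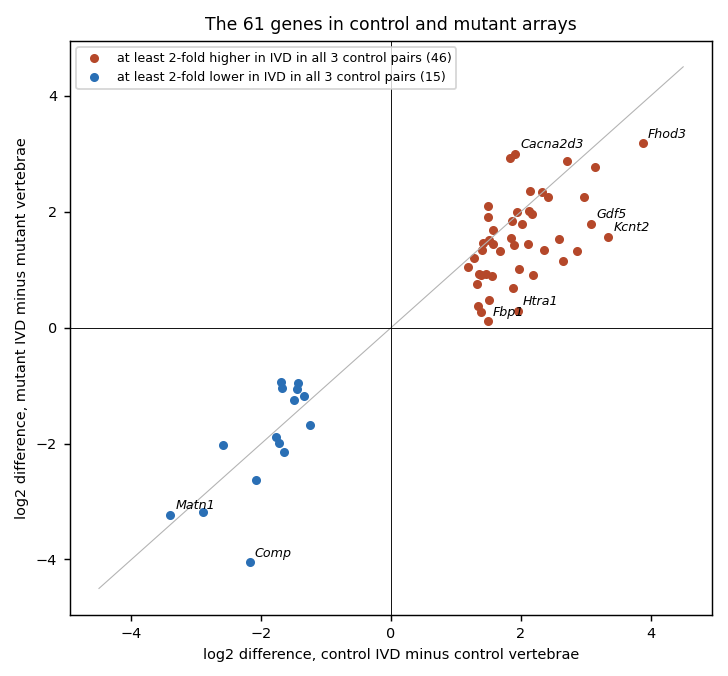
Log2 difference between IVD and vertebrae in mutant arrays (vertical axis) against that in control arrays (horizontal axis) for genes at least 2-fold apart in all 3 control pairs. All points lie in the same-sign quadrants, and Fbp1 and Htra1 lie close to 0 in the mutant.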

How the data were processed

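RNA from laser-captured lumbar IVD and vertebrae of E13.5 control embryos was amplified by the authors from 50 ng of total RNA in 2 cycles, hybridized to Affymetrix mouse arrays, then corrected for background and put through RMA in GeneSpring with its defaults. The values the authors deposited are log2 signals centred so that the 13 arrays have a median of 0 in each probe set. A filter on dim probe sets was not possible, since the values hold no level. After 64 control probe sets were left out, 45037 were tested. By the platform's annotation, 34945 carried 1 gene name, 932 several and 9160 none, and 18193 genes were named. Some results are not reported here.

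The 3 control IVD and 3 control vertebrae arrays were fitted with limma 3.58.1 in R 4.3.3 (lmFit and eBayes, two-sided, Benjamini-Hochberg adjustment over all probe sets) without a block, which is how the authors' methods treat them. After group means were removed, the IVD and vertebrae arrays sharing a number had r = 0.80, 0.57 and 0.57 over all probe sets, and those of different numbers r from -0.73 to 0.28. The pairing thus comes from the data, since the labels share only numbers, and the fits with the number as a fixed or a random block (consensus correlation 0.538) are printed beside the result. Deviations from the mean of 3 arrays sum to 0, so the correlations of same and different numbers are not independent. Liver genes were high in both arrays of number 1 (means of 4.79 and 4.96), and their part in these correlations was not tested. An exact permutation test of 3 arrays against 3 cannot go below p = 0.10, and an exact paired one with 3 pairs cannot go below p = 0.25. Alternatives were the fit of all 13 arrays, quantile normalization, robust variances, array weights, the unequal variance test of the methods, and leaving out arrays or pairs. Promoters came from RefSeq, with 33 of 46 and 13 of 15 genes matched. The method was tested on simulated data.

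Of 656 different listed genes in 43 lists, 620 were measured. The comparison, lists and genes were chosen with earlier results of these data known. Named are genes called in both block fits, up to 5 members per list by the smallest p with the fixed block, the 10 largest differences in each direction among those at least 2-fold in every pair, and a fixed set (Col2a1, Acan, Sox9, Sox5, Sox6, Col1a1, Col1a2, Scx, Mkx, Fmod, Tgfb3, Gdf5, Pax1, Pax9, Tgfbr2, Shh, Ebf1 and Nfatc1 among them). Other genes were named after their values were seen. Python 3.11.15 was used for the summaries.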

Additional observations from a re-analysis of the deposited data

How the results depend on the processing

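Called probe sets went from 0 without a block to 32 with the fixed replicate block, 42 with the random replicate block and 2 with array weights. Leaving out single arrays without a block gave 0. In the fixed replicate block fit, leaving out a pair gave 0 to 198, with 198 without pair 3 and 0 without pair 1 or pair 2. Named genes that passed went from 0 to 20, 23 and 2 in the same 3 fits, and with the fixed block to 0 to 49 without a pair (49 without pair 3). At the study's threshold, 313 probe sets were higher and 147 lower, against 515 higher with array weights, 186 higher and 70 lower by the methods' unequal variance test, and 224 lower after quantile normalization. Without an array or a pair, 181 to 663 were higher and 116 to 404 lower. Higher were 181 without control IVD 2 and 663 without control vertebrae 1, and lower 264 without control vertebrae 1 and 275 without control vertebrae 3. With the fixed replicate block, 639 were higher and 404 lower without pair 1, and 545 and 401 without pair 3. The genes with the same direction in every pair numbered 3206 and 3189. At least 2-fold in every pair were 46 and 15, and with a pair left out, chosen after the data were seen, 4902, 4958 and 5375 were higher and 5910, 4567 and 5138 lower without pair 1, 2 and 3. The cause of these changes was not tested.

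Of 43 lists, 30 kept the sign of their median under all 11 alternatives, including 8 of 9 fibrous and 5 of 5 cartilage lists. The exception among fibrous lists was tendon and ligament. None of the 30 named genes called in a block fit reversed. The control groups did not overlap in 54 of the 55 called probe sets. Leaving out arrays could not turn the sign of those, so the absence of reversals is no test of them. Of 196 other named genes, 22 changed sign without some array or pair. The interaction called 0 under quantile normalization, array weights and without any of the 13 arrays.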
